A study of Mus musculus with 786 samples.

Results

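Granulocytes and monocytes of mouse bone marrow arise from committed precursors, and the data described here cover the last step of that path that was profiled in bulk: 2 gates for granulocyte-monocyte progenitors, GMP-7 and GMP-11, each set against the earlier preGM gate. The comparison used 3 of the 786 samples of the series, or 3 of its 18 bulk populations, with 1 library per population. The members were the genes of the bulk table, of 18855 in all, that differed at least 4-fold in FPKM + 1 with an FPKM of 10 or more on the higher side: 465 genes were higher in both GMP gates than in preGM, 316 were lower in both, 541 were higher in GMP-7 than in GMP-11, and 461 were lower in GMP-7 than in GMP-11. FPKM counts fragments per length of transcript, scaled to the mapped fragments of the library, so that levels of different genes can be set beside each other.

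The series profiled stem cells and early precursors of blood by bulk and single-cell RNA sequencing. All 3 populations came from the bone marrow of C57BL6 mice aged 6 to 8 weeks, sorted on a FACS Aria, with 1000 cells in each library and cDNA amplified by the PMA method. GMP-7 cells were sorted as Lin-, IL7R-, ckit+, Sca1-, CD34+ and CD16/32+. GMP-11 cells were sorted as ckit+, Sca1-, CD41-, CD150- and CD16/32+. The preGM cells were sorted as ckit+, Sca1-, CD41-, CD150-, CD105- and CD16/32-. The labels do not say how many animals were pooled, and with 1 library per population no difference below has a replicate check, an error or a p-value. Each value describes these libraries.

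Granulocyte-monocyte progenitors are known as the stage at which the primary (azurophil) granules of neutrophils begin to be filled, with myeloperoxidase and the serine proteases neutrophil elastase, proteinase 3 and cathepsin G. The secondary and tertiary granule proteins, such as lactoferrin and gelatinase, are made later, at the myelocyte and metamyelocyte stages. The factors PU.1, C/EBP alpha and RUNX1 are known to act on the genes of the primary granule, and IRF8 on the monocyte side of the path.

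The libraries differed in how many genes they held. At an FPKM of 1 or more, 6080 genes were listed in GMP-7, 5628 in GMP-11 and 4157 in preGM, against a range of 1642 to 6080 over the 18 bulk libraries. There were 7285 genes at FPKM 1 or more in at least 1 of the 3 libraries. Over them, the median log2 difference from preGM was 0.85 in GMP-7 and 0.64 in GMP-11. A gene near those values lay at the middle of the differences, whatever its level. The gates differed by a median log2 of 0.16, GMP-7 over GMP-11. In GMP-11, 42.9% of the summed FPKM came from 1 small nucleolar RNA, Snora62, which was listed at 0 in GMP-7 and in preGM. The scaling factors from the median of gene ratios were nevertheless close in the 2 gates, 1.15 in GMP-7 and 1.11 in GMP-11, against 0.77 in preGM. The comparisons with preGM share that 1 library. Depth per library is not given in the sources used here, fewer cells of a type and less RNA per cell cannot be told apart in such bulk samples, and the part of gene detection in the counts below was not tested.

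The label of the 2 gates was checked against its 3 markers, which were high in both. Mpo, which encodes myeloperoxidase, had 1004 FPKM in GMP-7 and 1257 FPKM in GMP-11, against 126 FPKM in preGM. Prtn3, which encodes proteinase 3, had 186 FPKM in GMP-7 and 155 FPKM in GMP-11, against 6.21 FPKM in preGM. Ctsg, which encodes cathepsin G, had 313 FPKM in GMP-7 and 102 FPKM in GMP-11, against 5.66 FPKM in preGM. All 3 genes were already above FPKM 1 in preGM, and no value of preGM came near either gate. Of the genes that defined the sorts, Fcgr3, which encodes the CD16 antigen, had 13.7 FPKM in GMP-7 and 11.8 FPKM in GMP-11, against 1.05 FPKM in preGM, under 4-fold after quantile normalization. Fcgr2b, for CD32, stood at 2.69, 2.62 and 2.25 FPKM in GMP-7, GMP-11 and preGM. Kit had 131 FPKM in GMP-7, 42.9 FPKM in GMP-11 and 105.1 FPKM in preGM, and Cd34 had 246, 560 and 888 FPKM in the same order. Ly6a (Sca1) and Slamf1 (CD150) were listed at 0 in all 3 libraries, Il7r stayed under 0.1 FPKM, Itga2b (CD41) had 0.46, 0.26 and 1.31 FPKM, and Eng (CD105) had 0.13, 0.49 and 1.92 FPKM. A gene used to set a gate is a check of the sort and not a finding.

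Genes of the primary granule list lay above preGM in both gates by more than the medians of all genes. The list is broader than the proteins named above for that granule, and Ms4a3 and Hp are not taken here as its cargo. The 465 genes higher in both gates were 6.38% of the genes at FPKM 1 or more, a share that the definition itself sets. Of the 15 genes of the primary granule list, 9 were among them, none was lower in both gates, and 13 reached FPKM 1 in at least 1 library. The median log2 difference of those 13 genes was 3.05 in GMP-7 and 3.31 in GMP-11, against 0.85 and 0.64 over all genes. Their summed level over all 15 genes was 3194 FPKM in GMP-7 and 5142 FPKM in GMP-11, against 270 FPKM in preGM. Under each of 3 other scalings of the libraries, 8 or 9 of the genes still passed.

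Ela2 (now Elane), which encodes neutrophil elastase, had 1055 FPKM in GMP-7 and 2932 FPKM in GMP-11, against 7.36 FPKM in preGM, a log2 difference of 6.98 and 8.45. It was the 17th most abundant gene of GMP-7 and the 8th of GMP-11, while Mpo ranked 21 and 15. Prssl1 (now Prss57), a serine protease of the same granules, stood far lower, at 24.5 FPKM in GMP-7 and 16.9 FPKM in GMP-11, against 1.04 FPKM in preGM. Ms4a3, a membrane-spanning protein used as a marker of granulocyte-monocyte progenitors, had 52.1 FPKM in GMP-7 and 28.8 FPKM in GMP-11, against 0.30 FPKM in preGM. Hp, which encodes haptoglobin, had 177 FPKM in GMP-7 and 70.6 FPKM in GMP-11, against 0.21 FPKM in preGM. Thus the proteases differed in order between the gates: Ctsg was the higher in GMP-7 by log2 1.61, and Ela2 was the higher in GMP-11, with a log2 of -1.47 for GMP-7 over GMP-11. Both differences were below 4-fold.

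Srgn, whose product serglycin is the proteoglycan that packs granule proteins, had 168 FPKM in GMP-7 and 224 FPKM in GMP-11, against 30.5 FPKM in preGM. Cst7, which encodes cystatin F, an inhibitor of cathepsins, had 42.8 FPKM in GMP-7 and 133 FPKM in GMP-11, against 4.29 FPKM in preGM. Srgn lost its place among the 465 genes when the libraries were scaled by the median of ratios. The other members of the list were Ctsc, Lyzs (Lyz2), Serpinb1a, Fcnb, Lyz (Lyz1) and Bpi. Ctsc, the protease that activates the granule serine proteases, had 132 FPKM in GMP-7 and 152 FPKM in GMP-11, against 69.5 FPKM in preGM, and so was abundant in all 3 libraries. Bpi was listed at 0 in each.

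**Figure D1:**
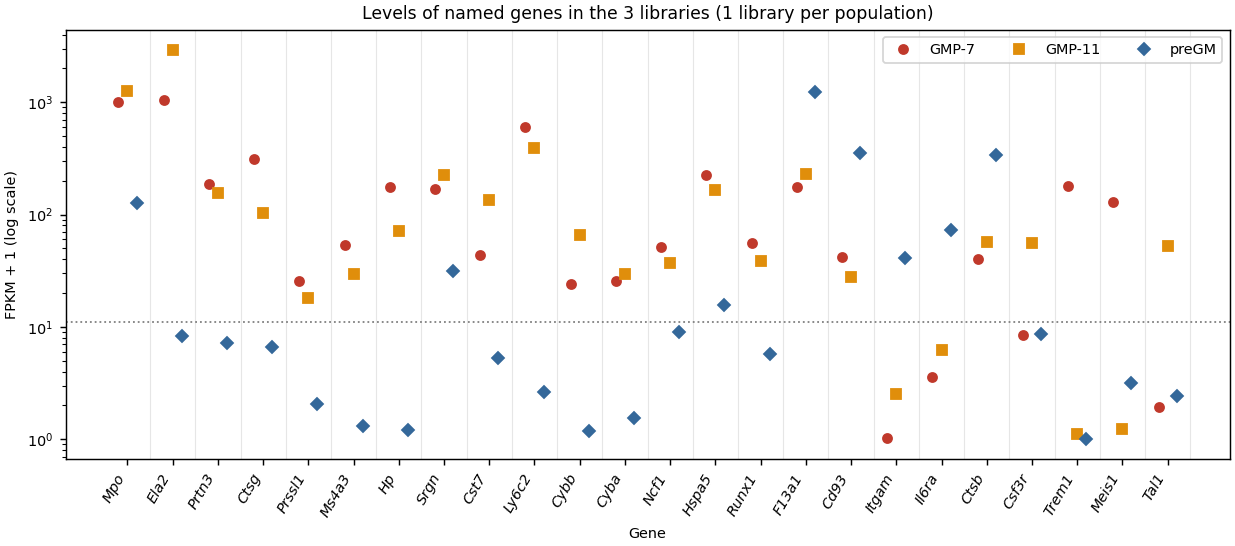
FPKM + 1 on a log axis of 24 named genes in GMP-7 (circles), GMP-11 (squares) and preGM (diamonds), 1 library each, with a dotted line at FPKM 10. The granule genes on the left have both gates above preGM, the genes from F13a1 to Ctsb have preGM on top, and the last 4 genes split the gates.

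The promoters of 4 primary granule genes are shown because these genes lay together in the data, and that of F13a1 because it is a myeloid gene that lay the other way. The sequences are RefSeq windows of GRCm38.p6, 300 bases each, from 250 bases before to 50 bases after the listed start of the gene, 5′ to 3′ on the strand of the gene. Capitals mark GAGGAA, the core that PU.1 and other ETS factors are known to bind, and TGTGGT, the RUNX core, on either strand.
Mpo, chr11:87793534-87793833, plus strand: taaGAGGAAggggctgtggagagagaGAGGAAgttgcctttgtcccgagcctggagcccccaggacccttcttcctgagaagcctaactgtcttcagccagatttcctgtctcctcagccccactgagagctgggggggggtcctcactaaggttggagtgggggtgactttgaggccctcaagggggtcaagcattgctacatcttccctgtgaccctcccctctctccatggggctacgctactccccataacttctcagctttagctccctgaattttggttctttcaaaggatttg
Elane (Ela2), chr10:79886062-79886361, plus strand: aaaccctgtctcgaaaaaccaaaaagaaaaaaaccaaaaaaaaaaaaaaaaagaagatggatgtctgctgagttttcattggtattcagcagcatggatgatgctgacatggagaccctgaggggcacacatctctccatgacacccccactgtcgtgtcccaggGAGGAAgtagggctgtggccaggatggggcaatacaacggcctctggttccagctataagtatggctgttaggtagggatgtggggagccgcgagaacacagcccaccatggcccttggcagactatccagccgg
Prtn3, chr10:79879417-79879716, plus strand: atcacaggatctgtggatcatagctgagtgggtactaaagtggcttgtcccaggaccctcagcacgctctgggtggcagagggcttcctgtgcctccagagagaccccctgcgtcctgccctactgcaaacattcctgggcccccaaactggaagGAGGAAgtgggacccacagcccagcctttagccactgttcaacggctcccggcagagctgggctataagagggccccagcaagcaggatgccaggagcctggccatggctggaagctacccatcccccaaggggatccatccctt
Ctsg, chr14:56102525-56102824, minus strand: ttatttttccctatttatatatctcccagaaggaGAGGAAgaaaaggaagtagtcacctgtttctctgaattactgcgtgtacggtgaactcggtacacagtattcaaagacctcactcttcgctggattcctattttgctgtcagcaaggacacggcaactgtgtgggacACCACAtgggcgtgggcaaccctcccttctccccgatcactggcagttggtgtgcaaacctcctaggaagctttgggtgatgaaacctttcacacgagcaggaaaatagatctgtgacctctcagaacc
F13a1, chr13:37050195-37050494, minus strand: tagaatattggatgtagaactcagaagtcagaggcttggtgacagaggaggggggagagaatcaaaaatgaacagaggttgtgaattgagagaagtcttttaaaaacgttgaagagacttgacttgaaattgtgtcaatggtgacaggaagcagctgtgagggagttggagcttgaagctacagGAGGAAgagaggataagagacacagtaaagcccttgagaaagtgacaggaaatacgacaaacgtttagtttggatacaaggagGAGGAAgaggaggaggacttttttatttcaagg
GAGGAA began at position -85 in the Elane window, at -95 in Prtn3, at -216 in Ctsg and at both -247 and -224 in Mpo, and at -66 and 18 in F13a1, counted from the start of the gene. A TGTGGT match, read on the opposite strand, began at -79 in Ctsg. TTGCNNAA, a short form of the C/EBP site, and AGATAA, a form of the GATA site, had no match in these 5 windows, while the window of Ms4a3, not shown, had a TTGCNNAA match at position 42. GAGGAA is common: it was found in 25.8% of the 383 promoters that could be matched to the genes higher in both gates, in 27.7% of the 253 matched to the genes lower in both, and in 28.3% of all promoters in the table. TGTGGT was found in 13.3%, 7.91% and 16.9% in the same order, TTGCNNAA in 9.92%, 4.35% and 10.8%, and AGATAA in 5.48%, 6.72% and 11.4%. Among the promoters of genes at FPKM 10 or more in 1 of the 3 libraries, GAGGAA was found in 26.7%, TGTGGT in 11.8%, TTGCNNAA in 7.65% and AGATAA in 5.58%. Those promoters had a median G+C content of 61.7%, against 52.7% for all promoters in the table. The motifs were searched on both strands, and where GAGGAA overlaps another motif both were counted. The matches describe the letters of these windows.

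Across the 18 bulk populations, 7 of the 9 called genes of the primary granule list had their highest level in a GMP gate. Of all 465 genes chosen by the same rule, 67 were highest in GMP-7 and 83 in GMP-11. The rule, in asking for high levels in both gates, favours such a peak. Srgn was highest in HSC, at 468 FPKM, and Cst7 in MKP, at 183 FPKM. By the sum of the 15 genes, GMP-11 and GMP-7 came first, followed by MKP with 1019 FPKM and CMP with 531 FPKM, and preGM was 9 in order with 270 FPKM. In MKP, Ela2 alone had 596 FPKM. With 1 library each, the neighbours CMP at 531, HSC at 524 and MPP3 at 520 FPKM cannot be ranked.

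Populations outside the 3 libraries gave values that the choice of members did not use. In CMP, the common myeloid progenitor, set against preMegE, 8 of the 9 granule genes were higher and 5 were at least 4-fold higher: Mpo had 229 FPKM in CMP against 0.09 FPKM in preMegE, Ctsg had 46.8 FPKM against a listed 0, and Prtn3 had 22.5 FPKM against 0.05 FPKM. Cst7 went the other way, with 13.5 FPKM in CMP against 73.0 FPKM in preMegE. In MPP3 set against MPP2, both of them multipotent progenitors, 7 of the 9 were higher and 4 were at least 4-fold higher, among them Ela2 with 272 FPKM in MPP3 against 49.4 FPKM in MPP2 and Mpo with 150 FPKM against 28.0 FPKM. Over all 3484 genes at FPKM 10 or more in 1 of the 3 libraries, 2552 (73.2%) were higher in CMP than in preMegE, and 25.2% at least 4-fold. In MPP3, 1743 of them (50.0%) were higher than in MPP2, and 13.7% at least 4-fold.

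**Figure D2:**
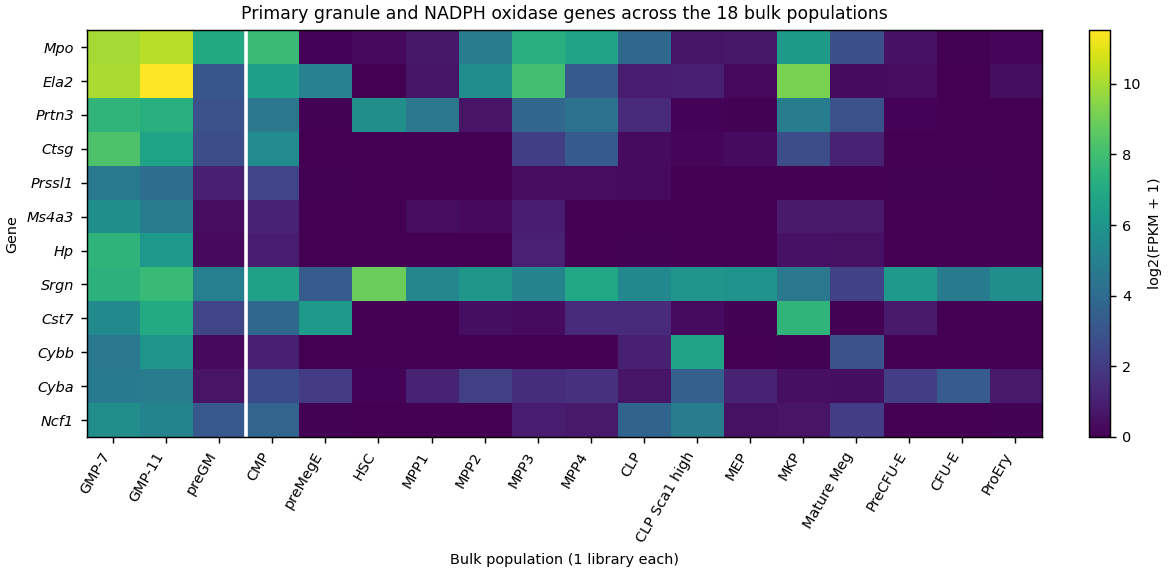
log2(FPKM + 1) of 9 genes of the primary granule list and 3 NADPH oxidase genes in the 18 bulk populations, 1 library each, with GMP-7, GMP-11 and preGM left of the white line. Mpo, Ela2, Prtn3, Ctsg, Prssl1, Ms4a3 and Hp are brightest in the GMP gates, whereas Srgn is bright in nearly every population and Cst7 also in MKP.

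The genes of the secondary and tertiary granule list, which does not hold Hp, were listed at or near 0. Of the 14 secondary and tertiary granule genes, 2 reached FPKM 1 in any of the 3 libraries, and none passed the 4-fold rule. Lcn2, which encodes lipocalin 2, had 2.26 FPKM in GMP-7 and 0.30 FPKM in GMP-11, and was listed at 0 in preGM. Pglyrp1, a peptidoglycan recognition protein, had 1.32 FPKM in GMP-7 and 0.36 FPKM in GMP-11, and was listed at 0 in preGM. S100a8, a calgranulin subunit, had 0.33 FPKM in GMP-7 and 0.57 FPKM in GMP-11, and again 0 in preGM. The 14 genes together came to 4.13 FPKM in GMP-7, 1.74 FPKM in GMP-11 and 0.01 FPKM in preGM.

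Subunits of the phagocyte NADPH oxidase, which makes superoxide, were among the genes higher in both gates. Cybb, the catalytic gp91phox, had 23.2 FPKM in GMP-7 and 64.2 FPKM in GMP-11, against 0.20 FPKM in preGM. Its membrane partner Cyba, p22phox, had 24.8 FPKM in GMP-7 and 28.9 FPKM in GMP-11, against 0.54 FPKM in preGM. The cytosolic subunit Ncf1 (p47phox) had 50.0 FPKM in GMP-7 and 35.9 FPKM in GMP-11, against 7.91 FPKM in preGM. The Ncf1 call was lost under all 3 other scalings, and those of Cybb and Cyba were kept.

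Lysosomal enzymes had members on both sides. Ctsz, which encodes cathepsin Z, had 49.9 FPKM in GMP-7 and 59.1 FPKM in GMP-11, against 5.17 FPKM in preGM. Ctsb, which encodes cathepsin B, had 38.8 FPKM in GMP-7 and 55.4 FPKM in GMP-11, against 341 FPKM in preGM, a log2 of -3.10 and -2.60. Gaa, the acid glucosidase, was also higher in both gates, by log2 3.47 in GMP-7 and 2.41 in GMP-11, but not under any of the 3 other scalings. In all, 3 of the 14 genes were higher in both gates and 1 was lower, and the median log2 difference of the 12 detected members was 0.76 in GMP-7 and 0.83 in GMP-11, close to the medians of all genes.

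Genes for folding and secreting proteins in the endoplasmic reticulum lay above the medians of all genes as a group. Their median log2 differences from preGM were 1.51 in GMP-7 and 1.44 in GMP-11 over 14 detected members. Under the 4-fold rule 1 of the 15 was higher in both gates: Hspa5, the chaperone BiP, had 225 FPKM in GMP-7 and 165 FPKM in GMP-11, against 14.8 FPKM in preGM. Pdia6, a protein disulfide isomerase, had 128 FPKM in GMP-7 and 93.2 FPKM in GMP-11, against 26.3 FPKM in preGM. Creld2, a chaperone induced by ER stress, had 8.14 FPKM in GMP-7 and 5.17 FPKM in GMP-11, against 0.04 FPKM in preGM, and so stayed under the floor of 10. Of the 14 detected genes, 12 were above preGM in GMP-7 and 13 in GMP-11, beside 5140 and 4954 of all 7285 genes.

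Of 17 monocyte genes, 1 was higher in both gates and 1 was lower, and 2 were lower under each of the 3 other scalings. Ly6c2, whose product Ly6C marks inflammatory monocytes, had 595 FPKM in GMP-7 and 388 FPKM in GMP-11, against 1.61 FPKM in preGM. Its near-identical neighbour Ly6c1, named for that likeness after its values were seen, had 26.2 FPKM in GMP-7 and 19.2 FPKM in GMP-11, against 0.02 FPKM in preGM, and reads could be split between the 2 genes. F13a1, the A subunit of coagulation factor XIII, made by monocytes and megakaryocytes, had 173 FPKM in GMP-7 and 227 FPKM in GMP-11, against 1238 FPKM in preGM. That level made F13a1 the 17th most abundant gene of preGM, and the highest of the 15 other populations, CMP, had 58.6 FPKM. Fn1, which encodes fibronectin, had 7.09 FPKM in GMP-7 and was listed at 0 in GMP-11, against 0.003 FPKM in preGM. The median log2 difference over the 14 detected genes was -0.31 in GMP-7 and 0.09 in GMP-11, below the 0.85 and 0.64 of all genes. It was -0.57 and -0.17 under upper quartile scaling, -0.75 and -0.25 under median-of-ratios scaling, and -1.05 and -0.55 after quantile normalization, below the median of all genes each time.

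Of 15 myeloid transcription factors, 1 was higher in both gates and none was lower. Runx1, needed for the emergence of blood stem cells and for myeloid gene expression, had 54.5 FPKM in GMP-7 and 38.0 FPKM in GMP-11, against 4.74 FPKM in preGM, and lost its call after quantile normalization. Gfi1, a repressor needed for neutrophil development, had 3.62 FPKM in GMP-7 and 6.54 FPKM in GMP-11, against 0.03 FPKM in preGM. Cebpe, the C/EBP factor of later granulocytes, had 6.86 FPKM in GMP-7 and 0.70 FPKM in GMP-11, and was listed at 0 in preGM. Gfi1 was thus above preGM in both gates and Cebpe in GMP-7, all under the floor of 10 FPKM. In GMP-11 Cebpe was under FPKM 1.

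The best known regulators of the path were added after their values were seen. Cebpa, for C/EBP alpha, had 15.4 FPKM in GMP-7 and 17.9 FPKM in GMP-11, against 20.1 FPKM in preGM. Sfpi1 (now Spi1), for PU.1, had 21.8 FPKM in GMP-7 and 23.7 FPKM in GMP-11, against 12.3 FPKM in preGM. Irf8 had 27.9 FPKM in GMP-7 and 54.4 FPKM in GMP-11, against 42.6 FPKM in preGM. None of these came near a 4-fold difference. Fli1, an ETS factor of the stem and early progenitor list, had 397 FPKM in GMP-7 and 288 FPKM in GMP-11, against 36.3 FPKM in preGM.

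Of the 15 receptors for myeloid cytokines, none was higher in both gates and 1 was lower, or 2 under each of the 3 other scalings. Il6ra, the receptor chain for interleukin 6, had 2.58 FPKM in GMP-7 and 5.29 FPKM in GMP-11, against 72.2 FPKM in preGM. The highest of the 15 other populations, MPP4, held 9.39 FPKM. Flt3, the receptor for FLT3 ligand, had 3.69 FPKM in GMP-7 and 15.4 FPKM in GMP-11, against 19.8 FPKM in preGM. Csf1r, the receptor of the macrophage growth factor, added after its values were seen, had 13.2 FPKM in GMP-7 and 15.7 FPKM in GMP-11, against 56.5 FPKM in preGM, and it was lower in both gates under all 3 other scalings. Among 14 genes for migration and adhesion, 2 were lower in both gates and none was higher. Itgam, which encodes CD11b, had 0.02 FPKM in GMP-7 and 1.51 FPKM in GMP-11, against 39.8 FPKM in preGM, and no other population exceeded 0.38 FPKM. Cd93, a surface glycoprotein of early myeloid and endothelial cells, had 40.8 FPKM in GMP-7 and 27.0 FPKM in GMP-11, against 354 FPKM in preGM. Itgb2, which encodes CD18, the partner of CD11b, had 3.51 FPKM in GMP-7 and 7.70 FPKM in GMP-11, against 31.3 FPKM in preGM, short of 4-fold in GMP-11 but past it under all 3 other scalings.

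**Figure D3:**
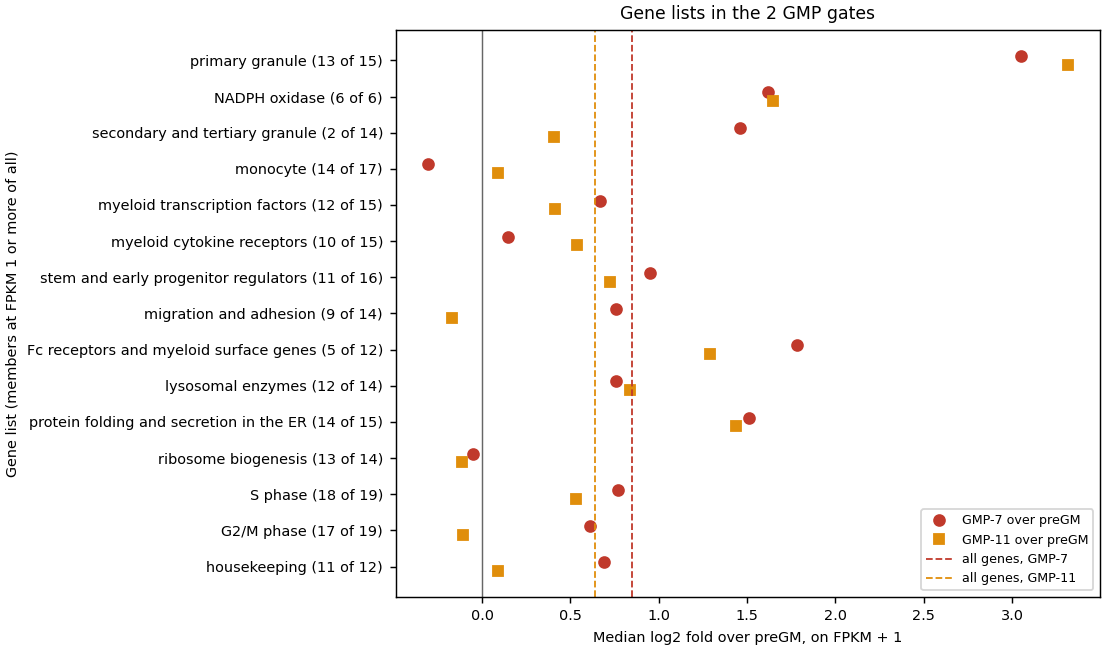
Median log2 difference from preGM on FPKM + 1 for 15 gene lists, in GMP-7 (circles) and GMP-11 (squares), over the members at FPKM 1 or more in at least 1 library. The dashed lines are the medians of all such genes, 0.85 in GMP-7 and 0.64 in GMP-11, and primary granule genes lie furthest to the right at 3.05 and 3.31.

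Of 19 S phase genes, 2 were higher in both gates. Gins2, a subunit of the replicative helicase complex, had 95.6 FPKM in GMP-7 and 138 FPKM in GMP-11, against 1.26 FPKM in preGM. Rrm2, a ribonucleotide reductase subunit, had 31.8 FPKM in GMP-7 and 33.7 FPKM in GMP-11, against 3.33 FPKM in preGM. Of 19 G2/M genes, Ccnb2 (cyclin B2) was higher in both gates, with 20.8 and 55.8 FPKM in GMP-7 and GMP-11 against 3.04 FPKM in preGM, and the checkpoint kinase Bub1 was lower, with 0.49 and 2.76 FPKM against 22.6 FPKM. The medians were 0.77 and 0.53 for S phase and 0.61 and -0.11 for G2/M in GMP-7 and GMP-11. The Ccnb2 call was lost when the libraries were scaled by the median of ratios or by quantiles. Ribosome biogenesis genes had medians of -0.05 and -0.11 in GMP-7 and GMP-11, with nucleolin (Ncl) lower in both gates at 16.2 and 4.97 FPKM against 100.3 FPKM in preGM.

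With clone or predicted names and small RNAs left out, differences over preGM were ranked by the smaller of the 2 gates' log2 values. Of the 10 largest, 8 were held by genes outside the lists. Armcx2, an armadillo-repeat gene, had 1893 FPKM in GMP-7 and 3373 FPKM in GMP-11, against 2.01 FPKM in preGM, and ranked 9 among all genes of GMP-7 and 7 among those of GMP-11. App, the amyloid precursor protein, had 326 FPKM in GMP-7 and 532 FPKM in GMP-11, against 0.02 FPKM in preGM, while HSC held 2170.3 FPKM. Tcfec (now Tfec), a helix-loop-helix factor of the MiT family, had 172 FPKM in GMP-7 and 192 FPKM in GMP-11, against 0.11 FPKM in preGM. With Ela2 and Ly6c2, the 10 genes were completed by Lrrc8d, a subunit of volume-regulated anion channels, the phosphatase Dusp19, Erlin2 of the ER membrane, the mitochondrial Rtn4ip1, and Zcchc8, a scaffold of RNA decay. The last 5 had log2 differences from preGM between 6.23 and 7.20 in GMP-7 and between 6.76 and 7.60 in GMP-11. For all 10, preGM lay below 10 FPKM and both gates at 80.3 FPKM or more.

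Over the whole set, levels ran to 1893 FPKM in GMP-7 and 3373 FPKM in GMP-11, with medians of 32.4 and 33.2 FPKM, against a median of 1.44 FPKM in preGM. In preGM 185 of the 465 genes were under FPKM 1, of which 7 were listed at 0, and 280 were at FPKM 1 or more. The 2 gates lay within 4-fold of each other for 420 of the 465 genes. By the table's symbols, 39 of the 465 carried clone or predicted names or were small RNAs, and these are counted without being named. Just inside the rule stood Ash1l, with 14.3 FPKM in GMP-7 and 18.2 FPKM in GMP-11 against 2.84 FPKM in preGM. Just outside it stood Rpl7l1, with 20.6 and 54.5 FPKM against 4.42 FPKM.

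The 316 genes lower in both gates were 4.34% of the genes at FPKM 1 or more. Ranked by the smaller of its 2 log2 differences, the first was Hrh2, the histamine H2 receptor, with 0.34 FPKM in GMP-7 and 0.03 FPKM in GMP-11, against 1033 FPKM in preGM, and 13.4 FPKM in the highest of the 15 other populations, preMegE. Arhgap18, a GTPase-activating protein, had 2.51 FPKM in GMP-7 and 0.16 FPKM in GMP-11, against 806 FPKM in preGM. Bcl2l1, which encodes the survival protein BCL-XL, had 1.85 FPKM in GMP-7 and 0.80 FPKM in GMP-11, against 390 FPKM in preGM. Ncoa1, a coactivator of nuclear receptors, had 0.22 FPKM in GMP-7 and 1.95 FPKM in GMP-11, against 342 FPKM in preGM. Arhgap18 did not exceed 18.1 FPKM in the 15 other populations, whereas Bcl2l1 reached 956 FPKM in CLP.

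The ranking left out 33 genes that had clone or predicted names or were small RNAs. The 10 were completed by Tmem67 of the primary cilium, Atxn7l1, Npal3 (now Nipal3), the splicing factor Prpf38b, Srfbp1 and Oas1a. Their log2 differences from preGM lay between -7.51 and -6.46 in GMP-7 and between -8.09 and -6.50 in GMP-11. Oas1a, a sensor of double-stranded RNA, had 0.53 FPKM in GMP-7 and 0.57 FPKM in GMP-11, against 221 FPKM in preGM, but it has close paralogs with which reads could be shared. Oasl2, of the same family, had 7.34 FPKM in GMP-7 and 6.74 FPKM in GMP-11, against 169 FPKM in preGM. The interferon list had 1 of 16 genes lower in both gates, 1 higher (Ifitm3, a restriction factor, at 26.5 and 12.5 FPKM in GMP-7 and GMP-11 against 0.68 FPKM in preGM) and 8 not reaching FPKM 1.

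Of the 316 genes, 203 (64.2%) had their highest level of the 18 libraries in preGM. The share was 337 (20.4%) of the 1654 genes at FPKM 10 or more in preGM. The rule favours such a peak, because it asks for a preGM level at least 4-fold above both gates. With CMP in place of preGM, 327 genes were lower in both gates but only 45 of the 316 were among them, and with preMegE 272 were lower, of which 28 were shared. Of the 465 higher genes, 132 were also higher against CMP and 297 against preMegE. Of the 316, 59 were under FPKM 1 in both gates and 3 were listed at 0 in both. Their median level was 2.58 FPKM in GMP-7 and 1.84 FPKM in GMP-11, against 57.4 FPKM in preGM. Mxd1 stood just inside the rule, with 2.06 FPKM in GMP-7 and 0.25 FPKM in GMP-11 against 11.3 FPKM in preGM, and Mink1 just outside, with 0.76 and 3.11 FPKM against 15.4 FPKM.

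How many genes were higher and how many were lower depended on the scaling. As deposited, 59.5% of the genes that passed in both gates were higher. The share was 49.1% when libraries were scaled to the upper quartile, 44.0% when scaled by the median of ratios, and 36.1% after quantile normalization, which was added after the data were seen. All 316 lower genes passed under the first and the second of these scalings, and 314 under the third. Of the 465 higher genes 387, 344 and 265 passed.

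Set against each other, GMP-7 and GMP-11 differed in fewer genes than any other pair of libraries: 541 genes (7.43%) were at least 4-fold higher in GMP-7 while 461 (6.33%) were at least 4-fold lower. Their total, 1002 genes, was the smallest of the 153 pairs of bulk libraries, where the median pair differed in 1589 genes and the widest in 2291. In 163 of the 541 genes the level in GMP-11 was under FPKM 1, and in 106 of the 461 that of GMP-7 was. The genes nearest the threshold were Rap1gds1 inside and Gnl3 outside on the GMP-7 side, with 46.9 FPKM in GMP-7 against 10.9 FPKM in GMP-11 for Rap1gds1 and 23.1 against 5.04 FPKM for Gnl3. On the GMP-11 side Prpsap2 stood inside, with 4.33 FPKM in GMP-7 against 20.4 FPKM in GMP-11, and Rab5b outside, with 29.3 against 120.2 FPKM.

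On the GMP-7 side, Trem1, a receptor that amplifies inflammatory signals in neutrophils and monocytes, had 178 FPKM in GMP-7 against 0.11 FPKM in GMP-11, and was listed at 0 in preGM. No other population exceeded 0.15 FPKM. Meis1, a homeobox factor of stem cells, had 127 FPKM in GMP-7 against 0.23 FPKM in GMP-11, with 2.14 FPKM in preGM and 1615 FPKM in MPP1. Pmaip1, the pro-apoptotic NOXA, had 95.7 FPKM in GMP-7 against 0.06 FPKM in GMP-11. Kmo, a kynurenine hydroxylase, had 68.6 FPKM in GMP-7 against 0.01 FPKM in GMP-11. The 10 largest differences were ranked without the 54 genes that had clone or predicted names or were small RNAs. The other 6 of these 10 were Ski, a repressor of TGF-beta signals, Gtf3c6 and Taf8 of basal transcription, Epc2, Uqcc (now Uqcc1) and Atp5g1. Uqcc and Atp5g1 belong to the mitochondrial respiratory chain and ATP synthase. The log2 differences of these 6 genes were 6.24 to 7.08 for GMP-7 over GMP-11.

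Several markers of basophils, mast cells and eosinophils lay on the same side. Of the 12 mast cell and basophil genes, 6 reached FPKM 1, with summed levels of 85.0 FPKM in GMP-7, 27.7 FPKM in GMP-11 and 1.05 FPKM in preGM. Gzmb, which encodes granzyme B, had 29.0 FPKM in GMP-7 against 1.81 FPKM in GMP-11. Prss34, a basophil protease, had 11.8 FPKM in GMP-7 against 1.79 FPKM in GMP-11, and lost its call after quantile normalization. Hdc, which makes histamine, was high in both, with 34.3 FPKM in GMP-7 and 22.3 FPKM in GMP-11, and all 3 genes were listed at 0 in preGM. The defining mast cell genes Fcer1a, Mcpt4, Tpsb2 and Tpsab1 were listed at 0 in all 3 libraries. Cpa3, mast cell carboxypeptidase, had 2.74 FPKM in GMP-7, 0.98 FPKM in GMP-11 and 0.27 FPKM in preGM. Ms4a2, the beta chain of the IgE receptor, had 2.06 and 0.23 FPKM in the gates and was listed at 0 in preGM, and the basophil protease Mcpt8 had 4.82, 0.46 and 0.66 FPKM in GMP-7, GMP-11 and preGM.

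Of the 11 eosinophil genes, 3 reached FPKM 1, with summed levels of 31.0 FPKM in GMP-7, 25.9 FPKM in GMP-11 and 4.25 FPKM in preGM. Prg2, the major basic protein, had 17.8 FPKM in GMP-7 against 0.56 FPKM in GMP-11. Epx, eosinophil peroxidase, had 6.21 FPKM in GMP-7 against 0.01 FPKM in GMP-11, under the floor of 10. Siglec5 (now Siglecf) went the other way, with 6.44 FPKM in GMP-7 against 25.4 FPKM in GMP-11, just under 4-fold. Ear1, Il5ra and Ccr3 were listed at 0 in all 3 libraries. The part of such cells in the split of the gates was not tested.

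Immediate early genes, which respond to handling and dissociation as well as to signals, had 2 of 15 members past the rule on the GMP-7 side. Of the 8 detected genes 5 lay above GMP-11, beside 3987 of all 7285 genes. Fosb had 28.5 FPKM in GMP-7 against 0.06 FPKM in GMP-11, and Ier2 had 12.1 FPKM against 0.43 FPKM, though Ier2 lost its call after quantile normalization. Fos had 37.9 FPKM in GMP-7 and 14.5 FPKM in GMP-11, against 4.37 FPKM in preGM. The list summed to 89.7 FPKM in GMP-7 and 28.0 FPKM in GMP-11, against 5.18 FPKM in preGM, and its part in the split was not tested. Bst2, tetherin, of the interferon list had 41.1 FPKM in GMP-7 against 2.71 FPKM in GMP-11, and Kif20a, a kinesin of cytokinesis, had 188 FPKM against 18.6 FPKM.

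On the GMP-11 side, Csf3r, the receptor for granulocyte colony-stimulating factor, had 7.52 FPKM in GMP-7 against 55.2 FPKM in GMP-11, with 7.61 FPKM in preGM and at most 8.81 FPKM in the 15 other populations. Tal1, a helix-loop-helix factor known for stem cells and the erythroid and megakaryocyte lines, had 0.93 FPKM in GMP-7 against 51.7 FPKM in GMP-11, with 152 FPKM in ProEry. Mcm4, a subunit of the replicative helicase, had 21.5 FPKM in GMP-7 against 92.1 FPKM in GMP-11, and lost its call under upper quartile scaling. Rpo1-4 (now Polr1a), the large subunit of RNA polymerase I, had 9.36 FPKM in GMP-7 against 84.8 FPKM in GMP-11.

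Small RNAs such as Snora62 and clone or predicted names made up 54 of the 461 genes and were left out of the ranking. Among the others, the 10 largest differences toward GMP-11 were again held by genes outside the lists. Ppm1e, a protein phosphatase, was listed at 0 in GMP-7 and in preGM and had 707 FPKM in GMP-11. Fzd7, a WNT receptor, had 0.35 FPKM in GMP-7 against 253 FPKM in GMP-11, with 3.57 FPKM in preGM. Abhd5, an activator of triglyceride breakdown, had 0.24 FPKM in GMP-7 against 132 FPKM in GMP-11. The other 7 of the 10 were Cdyl, Arhgap26, Tspyl3, Tmem16f (now Ano6), a lipid scramblase, and the zinc finger genes Zfp592, Zfp652 and Zfp418, with log2 values of -6.34 to -5.53 for GMP-7 over GMP-11. In GMP-7 none of these 10 genes exceeded 1.96 FPKM.

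**Figure D4:**
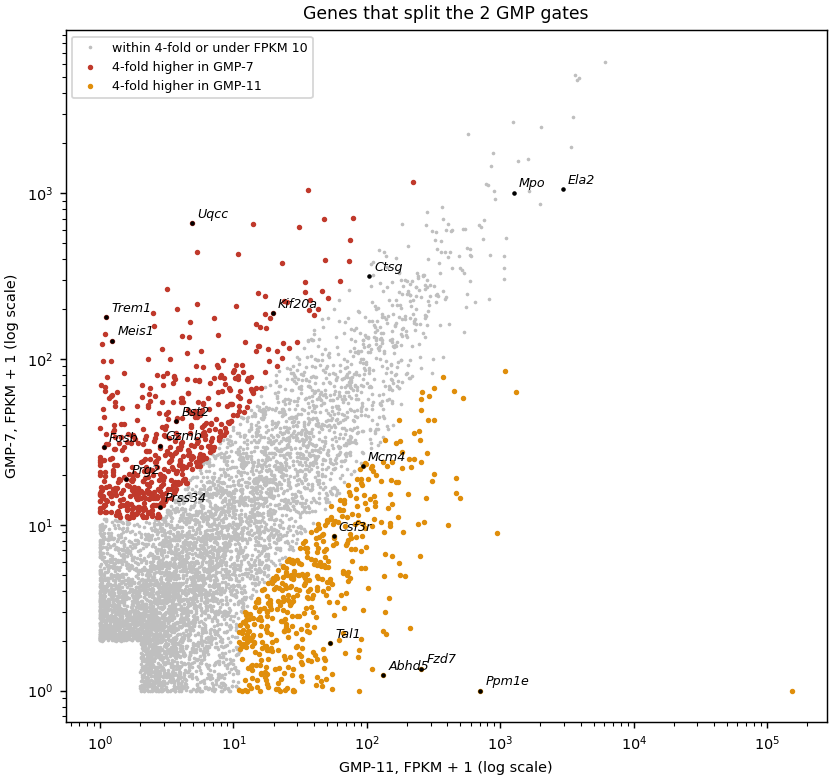
Level of each gene in GMP-7 (vertical) and GMP-11 (horizontal), FPKM + 1 on log axes, 1 library each, for genes at FPKM 1 or more in either gate. Genes at least 4-fold higher in GMP-7 lie at the upper left, with Trem1 and Meis1 far out, those higher in GMP-11 lie at the lower right, with Ppm1e and Fzd7, and Mpo, Ela2 and Ctsg lie between them.

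Of the remaining lists, the 12 housekeeping genes had none past the rule in both gates, with medians of 0.69 in GMP-7 and 0.09 in GMP-11. Tbp, the TATA-binding protein, split the gates, with 14.4 FPKM in GMP-7 against 0.81 FPKM in GMP-11. Of 12 Fc receptor and myeloid surface genes none passed, although Clec12a, an inhibitory lectin of myeloid cells, had 59.6 FPKM in GMP-7 and 52.3 FPKM in GMP-11, against 14.3 FPKM in preGM. The median of the 5 detected genes was 1.78 in GMP-7 and 1.29 in GMP-11. Of 16 stem and early progenitor regulators, Fli1 was the gene higher in both gates, and the medians of 0.95 in GMP-7 and 0.73 in GMP-11 lay near those of all genes. None of 8 MHC class II, 12 dendritic cell and 11 endothelial and stromal genes passed in either direction.

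Markers of further cell types were also measured. Macrophage genes summed to 1.21 FPKM in GMP-7, 17.7 FPKM in GMP-11 and 1.03 FPKM in preGM, from 3 of 12 genes, with Vcam1 at 0.53 FPKM in GMP-7 against 8.95 FPKM in GMP-11 and Cd68 at 0.26 against 6.81 FPKM, while C1qa, C1qb and C1qc were listed at 0 in all 3. Erythroid genes summed to 12.6 FPKM in GMP-7, 16.3 FPKM in GMP-11 and 85.7 FPKM in preGM, where Ermap, a red cell adhesion protein, was lower in both gates with 0.02 and 0.20 FPKM against 57.3 FPKM. Lymphoid genes summed to 28.6, 13.6 and 292 FPKM, nearly all of the last from Satb1, a chromatin organiser that is not limited to lymphocytes, with 10.6 FPKM in GMP-7 and 7.02 FPKM in GMP-11 against 289 FPKM in preGM. Cd79b, a chain of the B cell receptor, lay the other way, with 14.5 FPKM in GMP-7 and 3.61 FPKM in GMP-11 against 0.71 FPKM in preGM. Genes of T and NK cells summed to 0.02, 0.16 and 3.44 FPKM. Of the megakaryocyte genes, Plek (pleckstrin) was lower in both gates, with 0.80 and 3.99 FPKM against 24.3 FPKM. The part of such cells in the preGM library was not tested.

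The wider series showed where the 2 gene sets were used elsewhere. At FPKM 10 or more, 57.6% of the 465 higher genes were found in CMP, the highest share of the 15 other populations, against 51.6% of all 3484 genes at that level in 1 of the 3 libraries. PreCFU-E followed with 51.0% of the 465 genes. Of the 465 genes 67 were highest of all 18 populations in GMP-7 and 83 in GMP-11, so most were higher in some other population. Of the 316 lower genes, 35.8% were at FPKM 10 or more in CMP, the largest share outside preGM.

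Set against preMegE, CMP was at least 4-fold higher for 36.1% of the 465 genes and for 21.2% of the 316 genes, beside 25.2% of the 3484 genes. The median log2 difference was 1.59 for the 465 genes and 0.82 for the 316 genes, beside 1.05 for all. CMP was at least 4-fold lower for 5.81% of the 465 genes and 8.86% of the 316, beside 6.92% of all. MPP3 was at least 4-fold higher than MPP2 for 16.3% of the 465 genes and 12.0% of the 316, beside 13.7% of all, with medians of 0. It was at least 4-fold lower for 13.8% and 9.49% of them, beside 13.4% of all. MPP4 was at least 4-fold higher than MPP1 for 25.6% and 18.0% of them, beside 21.8% of all, and at least 4-fold lower for 9.68% and 7.59%, beside 9.07% of all. Neither CMP, preMegE nor any MPP library entered the choice of the members.

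**Figure D5:**
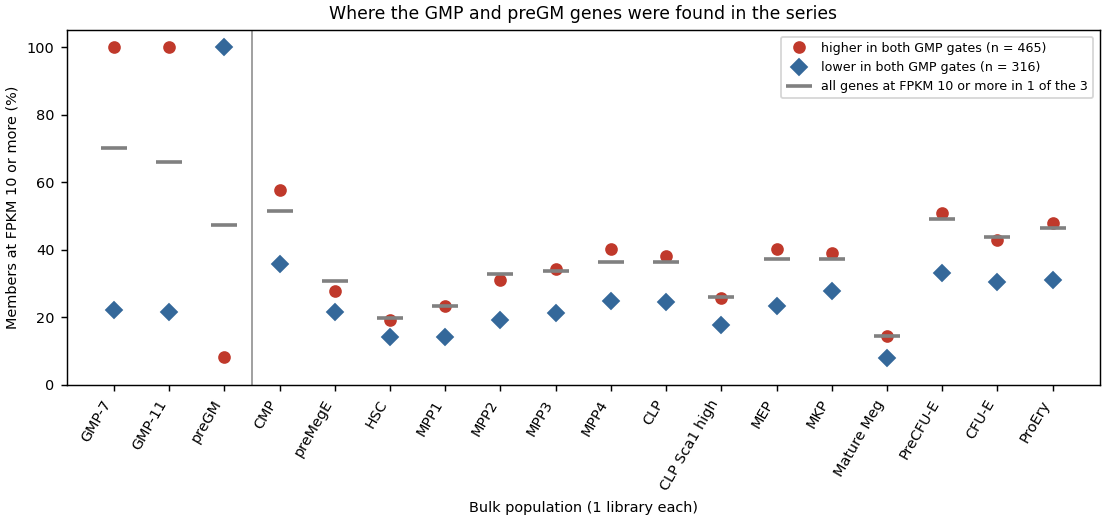
Share of the 465 genes higher in both GMP gates (circles), of the 316 genes lower in both (diamonds) and of all genes at FPKM 10 or more in 1 of the 3 libraries (bars) that reached FPKM 10 in each of the 18 bulk populations. Left of the line the rule sets the shares; right of it the circles stay close to the bars, with CMP at 57.6% against 51.6%, and the diamonds lie below both.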

How the data were processed

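The authors deposited 1 bulk table of FPKM values per RefSeq gene, made with TopHat 1.3.3 and Cufflinks 1.2.1 on mm9, per the submitters' processing notes. Each of its 18 columns is 1 library of 1 population. The single-cell tables of the series were not used here. Fold changes were computed on log2(FPKM + 1), with a floor of FPKM 10 and a 4-fold threshold, in Python 3.11.15 with pandas 2.3.3. With 1 library per population there was no test. Low values fell on steps of whole reads, with many genes sharing a ratio between libraries. The fullest narrow bin of low-value ratios held 3.37% of 1484 genes for GMP-7 and GMP-11. It held 2.31% of 1341 genes for GMP-7 and preGM, and 4.46% of 1503 genes for GMP-11 and preGM. Depth per library was not derived from these steps, and no interval was computed. Library preparation used no stated strand, so overlapping genes cannot be told apart. Symbols were matched to RefSeq GRCm38.p6 by accession (18322 genes), symbol (259) or synonym (164), and 110 had no match.

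The members and the 28 gene lists were chosen with earlier results of these data known. Named were the 10 largest differences per class, with clone or predicted names and small RNAs left out. All sort markers were also named, and per list each member past 4-fold in both gates plus the 3 with the widest range. Members past the rule between the gates and regulators added later are named as such. The class rules were checked on simulated data. Alternatives were other pseudocounts, floors, folds, scalings and reference libraries, and each gate alone. Some members of the lists are not reported here.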

Additional observations from a re-analysis of the deposited data

Results flagged for a closer look

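Among the named genes, Ski and Uqcc were at least 4-fold higher than preGM in GMP-7 and at least 4-fold lower than preGM in GMP-11. Ski had 141 FPKM in GMP-7 and 0.10 FPKM in GMP-11, against 4.41 FPKM in preGM, and its log2 difference for GMP-7 over GMP-11 was 7.02. Uqcc had 657 FPKM in GMP-7 and 3.86 FPKM in GMP-11, against 131 FPKM in preGM, and its log2 difference for GMP-7 over GMP-11 was 7.08. The 2 gates thus moved in opposite directions, each with 1 library against the same preGM library, and the difference between them was not tested. Over all genes, 5 had this pattern and 3 had the reverse one.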

How the results depend on the processing

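No paired analysis was possible because each population has 1 library. The counts of genes higher in both gates, lower in both, higher in GMP-7 and lower in GMP-7 were 102, 161, 155 and 152 with a pseudocount of 10, 728, 520, 978 and 895 at 2-fold, and 263, 166, 288 and 233 at 8-fold. A floor of FPKM 1 gave 760 higher in both, and a floor of 20 gave 275 higher in both and 347 higher in GMP-7. Genes higher in both numbered 223 against CMP, 710 against preMegE and 265 after quantile normalization. Restricting the table to genes at FPKM 1 or more in all 3 libraries, a choice made after seeing the data, left 280, 168, 243 and 235. Leaving out GMP-7 or GMP-11 gave 1017 to 1081 genes higher and 451 to 476 lower than preGM. The other settings moved a count by less than 1.5 times, and no named gene past 4-fold changed sign. A log2 difference was counted as moved if it shifted by 1.5-fold or more or changed sign. Of those of named genes under the alternatives, 560 moved and 1450 did not, and of the list medians 148 did and 356 did not. With 1 library each, levels listed at 0 or near the floor are the least certain, and the split of the gates rests on single libraries.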

Other observations

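The small nucleolar RNA Snora62, chosen after its values were seen, made up 42.9% of the summed FPKM of GMP-11 and was also the most abundant entry of preMegE, with 34.4% of its sum, of CFU-E, with 5.94%, and of MPP4, with 5.16%, while it was listed at 0 in GMP-7 and preGM.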
